A study of Homo sapiens with 6 samples.

Results

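The genes described here are the kinases, phosphatase subunits and inhibitors that slow protein synthesis when a cell lacks amino acids or is otherwise stressed, with the factor the kinases act on. They were chosen by symbol, as all probes annotated to EIF2AK1, EIF2AK3, EIF2AK4, EIF2S1, PPP1R15A, PPP1R15B, EIF4EBP1 and EIF4EBP2. These 8 genes have 10 of the 47225 probes of the array. For 7 of the genes at least 1 probe was detected (detection p under 0.05) on all 3 arrays of a group and could be tested, among 10672 tested genes in all, and PPP1R15B was not.

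RNA of Ju77, a human malignant mesothelioma cell line, was hybridised to Illumina expression arrays. The groups were 3 arrays of Ju77 cells resistant to ADI-PEG20 and 3 arrays of parental Ju77 cells. The agent is a pegylated enzyme, an arginine deiminase, that removes arginine from outside the cell. Cells were plated a day before RNA extraction, and the labels do not say whether the resistant cells were kept in the agent. Each group holds repeats of 1 line, so the effect of resistance and other differences between the 2 lines cannot be told apart. Nothing in the labels says that the repeats were separate cultures, so the p-values cover the spread between these arrays only, and that spread may be technical.

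Protein synthesis starts when eIF2, loaded with GTP, brings the initiator tRNA to the ribosome. Each eIF2 kinase senses a different stress and phosphorylates the alpha subunit of eIF2, which then blocks the exchange factor eIF2B. Most synthesis slows, while a few messages such as that of the transcription factor ATF4 are translated better. A phosphatase guided by PPP1R15A or PPP1R15B reverses the mark. The EIF4EBP proteins form a separate brake: they bind the cap-binding factor eIF4E until the kinase mTORC1 phosphorylates them. The arrays measured mRNA and say nothing of phosphorylation. In such bulk RNA, fewer cells of a kind and less RNA per cell cannot be told apart.

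Between 19024 and 20113 probes were detected per array. The mean intensity was 431 ± 20.1 on the resistant arrays and 480 ± 16.1 on the parental arrays (SD, n = 3 each). Of 9 mesothelial markers 5 were detected in the resistant line and 6 in the parental line, on all arrays of the line, among them calretinin (CALB2), WT1 and mesothelin (MSLN), while ITLN1 and KRT5 were detected on no array. None of the 5 endothelial markers and 1 of the 5 leukocyte markers on the array (CD68) was detected on all arrays of a group. Of 6 fibroblast markers 1 was so detected in the resistant line and 2 in the parental line, and of 6 lung epithelial markers likewise 1 and 2. All levels below are log2 intensities after background correction and quantile normalisation, and all differences are resistant minus parental on that scale, with limma's p-value adjusted by Benjamini-Hochberg over the 10672 genes.

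The cell type markers also differed between the lines. Of 6 tested mesothelial markers 1 was higher in the resistant line (CALB2) and 3 were lower (PDPN, LRRN4 and BNC1). Among all tested genes 22.4% were called higher and 23% lower. CALB2 read 8.63, 8.47 and 8.65 on the resistant arrays, against 5.65, 5.82 and 6.07 on the parental arrays (difference 2.74, SE 0.12, adjusted p = 1.83e-06). Of 2 fibroblast markers MFAP5 was higher and FBLN1 lower, of 2 lung epithelial markers EPCAM was lower, and CD68 was higher, a call lost under median scaling of the arrays (adjusted p = 0.744). WT1 and NKX2-1 did not pass the threshold but were called lower under median scaling (adjusted p = 0.0172 and 0.00991). Summed over all probes of a list on the linear scale, the mesothelial markers had 2811 to 2908 intensity units on the resistant arrays and 2824 to 3023 on the parental arrays, and the fibroblast markers 1362 to 1458 and 433 to 480. The sums were 1239 to 1362 on the resistant arrays and 1077 to 1189 on the parental arrays for leukocyte markers, and 254 to 284 and 399 to 427 for lung epithelial markers. The fibroblast sum rests on MFAP5, which read 10.05, 10.04 and 10.16 on the resistant arrays, against 7.19, 6.85 and 7.04 on the parental arrays, while DCN, LUM, PDGFRA and DPT were detected on no array. In the leukocyte list PTPRC, CD3E, CD14 and ITGAM were likewise detected on no array, which leaves CD68 as its only detected marker. The part of these marker differences in the results below was not tested.

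Of the 7 tested genes 4 were lower in the resistant cells, 1 was higher and 2 did not pass the threshold of 0.05. Over all tested genes 45.4% were called, 22.4% higher and 23% lower, so a call was common among genes of any kind. Where median scaling of the arrays replaced quantile normalisation, the calls over all genes were 1466 higher and 3774 lower, against 2387 and 2456. The median of all differences moved by -0.15 with that scaling, and the members' calls were the same. The median difference of the 7 genes was -0.48, and that of all genes was -0.0040. In 5 of the 7 the groups did not overlap, as in 56% of all tested genes.

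**Figure D1:**
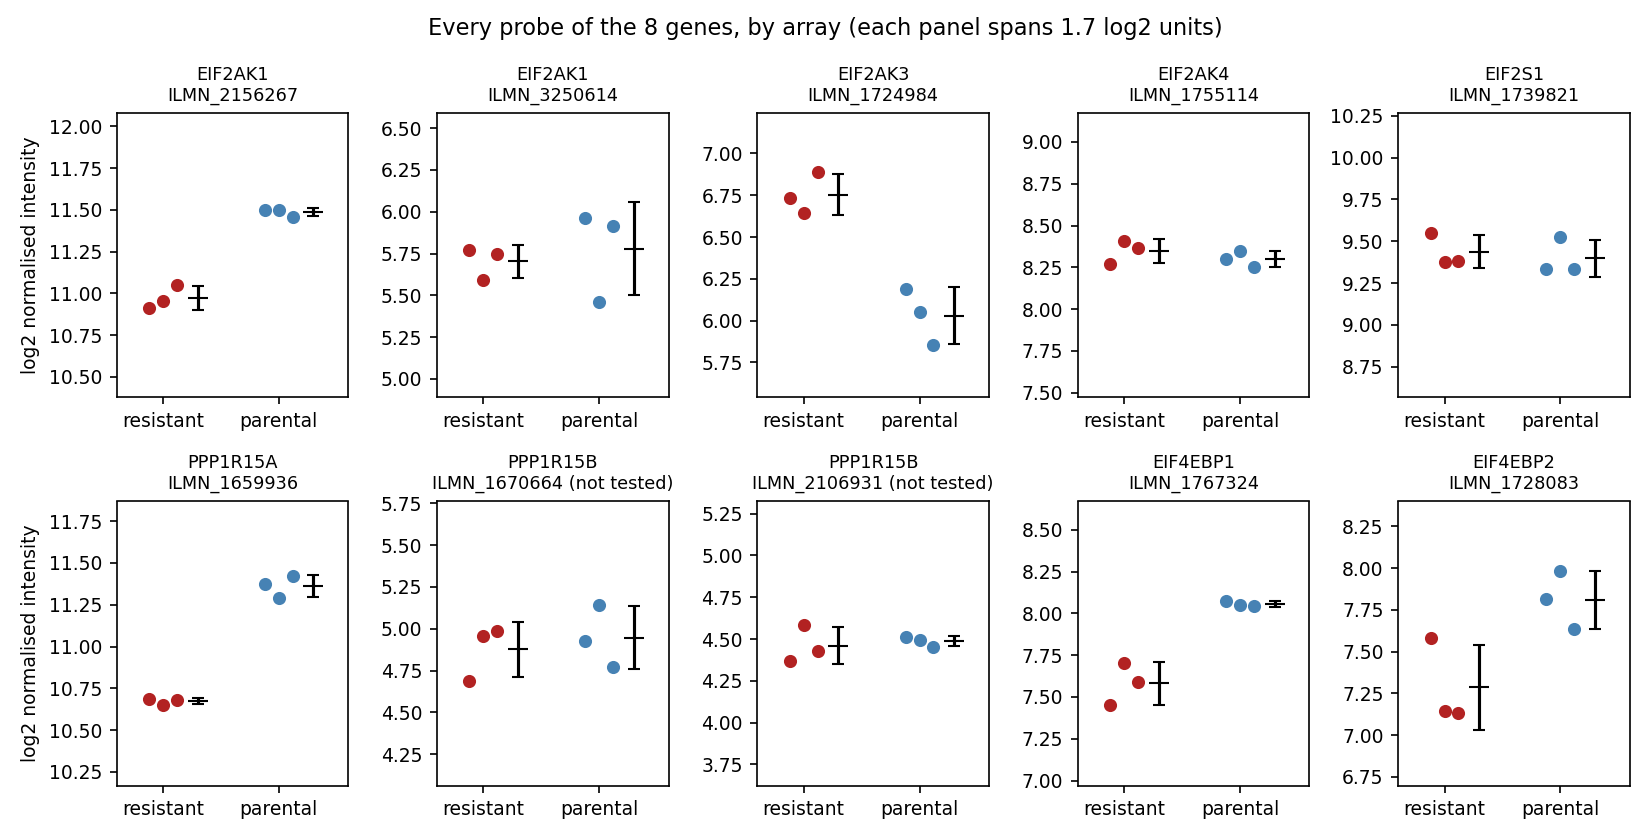
Log2 normalised intensity of each of the 10 probes on every array, with the 3 resistant arrays in red on the left and the 3 parental arrays in blue on the right of each panel, and the mean and SD beside them. Each panel spans the same range, so the separation of PPP1R15A and the overlap of EIF2S1 can be compared by eye, but levels of different probes cannot.

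Among the kinases, EIF2AK1, the heme-regulated kinase that also answers mitochondrial stress, was lower in the resistant cells. Its first probe (ILMN_2156267) read 10.92, 10.95 and 11.05 on the resistant arrays, against 11.50, 11.50 and 11.46 on the parental arrays. Every resistant array lay below every parental array. The difference was -0.51 (SE 0.08, 95% interval -0.69 to -0.34, adjusted p = 0.00109), which is 1.43-fold lower. Before normalisation the same probe had an intensity of 1931 ± 124 on the resistant arrays and 3231 ± 99.6 on the parental arrays (SD, n = 3 each).

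A second probe (ILMN_3250614), annotated to another EIF2AK1 transcript, had raw intensities of 147 ± 8.73 on the resistant arrays and 163 ± 13.4 on the parental arrays (SD, n = 3 each). It read 5.77, 5.59 and 5.75 on the resistant arrays, against 5.96, 5.46 and 5.92 on the parental arrays, and the groups overlapped. Its difference was -0.08 (95% interval -0.41 to 0.25, adjusted p = 0.701 over all 17843 probes kept, of which 38.8% were called). The probe was dim, and leaving out single arrays moved its difference: it was -0.24 without parental replicate 2 (adjusted p = 0.12) and 0.014 without parental replicate 1 (adjusted p = 0.954). With the mean of the 2 probes in place of the first one, the EIF2AK1 difference was -0.30 (adjusted p = 0.0303).

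EIF2AK1 lies on chromosome 7 among genes that were mostly lower as well. Of the 20 tested genes nearest to it in gene order 16 were lower and none was higher, with a median difference of -0.47. For this and every later count of neighbours, the shares among all tested genes were 22.4% higher and 23% lower. EIF2AK1 ranked 10 of 21 from the lowest in this stretch. With 40 neighbours the median was -0.50, with 32 lower and none higher. The part of this stretch in the EIF2AK1 difference was not tested.

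EIF2AK3, the endoplasmic reticulum kinase PERK that senses unfolded protein, was the only tested member called higher. Its probe (ILMN_1724984) read 6.73, 6.64 and 6.89 on the resistant arrays, against 6.19, 6.05 and 5.85 on the parental arrays. All resistant arrays lay above all parental arrays. The difference was 0.72 (SE 0.11, 95% interval 0.47 to 0.98, adjusted p = 0.00124), which is 1.65-fold higher. The probe was dim, with raw intensities of 199 ± 14.2 on the resistant arrays and 174 ± 5.33 on the parental arrays (SD, n = 3 each), and the size rests on the background correction: without it the difference was 0.33 (adjusted p = 4.38e-04). Of the 20 neighbours of EIF2AK3 on chromosome 2, 7 were higher and 2 lower, with a median of 0.20, and EIF2AK3 ranked 17 of 21 from the lowest.

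EIF2AK4, known as GCN2, is the kinase that binds uncharged tRNA and so answers a lack of amino acids such as arginine. Its probe (ILMN_1755114) read 8.27, 8.41 and 8.37 on the resistant arrays, against 8.30, 8.35 and 8.25 on the parental arrays. After normalisation the groups overlapped and the arrays of both lines lay close together. Before it the probe had an intensity of 398 ± 9.61 on the resistant arrays and 446 ± 6.38 on the parental arrays (SD, n = 3 each), without overlap. The mean over all probes was also lower on the resistant arrays (431 against 480). The EIF2AK4 difference after normalisation was 0.05 (95% interval -0.13 to 0.23, adjusted p = 0.641). The interval leaves room for a rise of 0.23 and a fall of 0.13 on the log2 scale, and under median scaling the sign turned, with a difference of -0.13 (adjusted p = 0.208). Relative to the median of all genes under that scaling it was 0.02.

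The 2 kinases that were called went opposite ways. The EIF2AK3 difference exceeded that of EIF2AK1 by 1.24, with an exact two-sided permutation p of 0.10 (0.20 adjusted over the 2 pairs of members so compared). That is the smallest p that 3 arrays against 3 can give. It was fixed in advance, because each kinase separated the groups in opposite directions, so it adds nothing to the 2 calls. EIF2AK2, or PKR, the double-stranded RNA kinase that completes the family, is no member but was measured beside them. It read 11.11, 11.04 and 11.30 on the resistant arrays, against 10.27, 10.19 and 10.27 on the parental arrays, a rise of 0.91 (SE 0.09, adjusted p = 1.50e-04). EIF2AK2 is known as an interferon-stimulated gene. It lies on chromosome 2, where 9 of its 20 neighbours were higher and none lower (median 0.32), and it ranked 19 of 21 from the lowest.

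EIF2S1, the alpha subunit of eIF2 that all 4 kinases phosphorylate, did not pass the threshold. Its probe (ILMN_1739821) read 9.55, 9.38 and 9.38 on the resistant arrays, against 9.33, 9.53 and 9.33 on the parental arrays. In each line 1 array stood above the other two, and the groups overlapped. The difference was 0.04 (95% interval -0.17 to 0.25, adjusted p = 0.759). It was -0.16 under median scaling, or -0.011 relative to the median of all genes there, and -0.018 without resistant replicate 1.

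The phosphatase subunit PPP1R15A, known as GADD34, showed the largest fall among the members. It is induced by stress and brings protein phosphatase 1 to eIF2, which restores translation. Its probe (ILMN_1659936) read 10.69, 10.65 and 10.68 on the resistant arrays, against 11.38, 11.29 and 11.42 on the parental arrays. The resistant arrays differed among themselves far less than they did from any parental array. The difference was -0.69 (SE 0.08, 95% interval -0.86 to -0.52, adjusted p = 2.34e-04), which is 1.61-fold lower. Raw intensities were 1604 ± 111 on the resistant arrays and 2985 ± 243 on the parental arrays (SD, n = 3 each). On chromosome 19 it ranked lowest of 21 among itself and its 20 neighbours, of which 8 were higher and 4 lower (median 0.18), and lowest of 41 with 40 neighbours.

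The promoters of PPP1R15A and EIF2AK3 are shown because these members had the largest fall and the largest rise. Each is the 250 bases before the RefSeq gene start, in GRCh38.p14, and the promoters of 6 of the 8 genes were used. The PPP1R15A sequence is chr19:48872171-48872420 on the plus strand, with the CRE letters TGACGTCA, to which proteins of the ATF and CREB family bind, in capitals. The EIF2AK3 sequence is chr2:88627465-88627714 on the minus strand, with the CCAAT box, read as CCAAT or ATTGG, in capitals.
PPP1R15A: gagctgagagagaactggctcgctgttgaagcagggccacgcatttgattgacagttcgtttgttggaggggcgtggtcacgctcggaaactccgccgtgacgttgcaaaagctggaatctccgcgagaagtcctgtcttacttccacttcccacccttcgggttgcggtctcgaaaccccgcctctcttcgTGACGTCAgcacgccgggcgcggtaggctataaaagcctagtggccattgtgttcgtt
EIF2AK3: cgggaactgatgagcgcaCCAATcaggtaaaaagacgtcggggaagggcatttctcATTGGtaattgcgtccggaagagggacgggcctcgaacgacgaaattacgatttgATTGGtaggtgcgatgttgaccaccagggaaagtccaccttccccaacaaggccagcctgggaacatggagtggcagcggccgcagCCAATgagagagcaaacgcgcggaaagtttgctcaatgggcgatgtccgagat

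Both strands of these 250 bases were searched for 4 motifs in the 6 promoters used. The called members EIF2AK1 and EIF4EBP1 were left out of this search, so the counts of member promoters do not cover them. The palindrome TGACGTCA occurred once in PPP1R15A, beginning 58 bases before the start, and in none of the other 5 member promoters used. It occurred in 1.65% of 35116 promoters. The CCAAT box occurred 4 times in EIF2AK3, beginning 232, 194, 139 and 53 bases before the start. It also occurred once in PPP1R15B, and at least once in 32% of promoters. The C/EBP-ATF response element TGATGNAAN, to which ATF4 binds, was in neither sequence and was found in PPP1R15B among the members searched, and in 3.13% of promoters. The endoplasmic reticulum stress element (ERSE), which contains the CCAAT box, was in none of the 6 and in 0.074% of promoters. A match describes these letters and no binding was measured.

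PPP1R15B, known as CReP, is the phosphatase subunit that is made without stress. Neither of its probes was detected on all arrays of a group, so it was not tested in the fit on all 6 arrays. The probe ILMN_1670664 read 4.69, 4.96 and 4.99 on the resistant arrays, of which 1 was detected, against 4.93, 5.14 and 4.77 on the parental arrays, of which 2 were detected. The probe ILMN_2106931 read 4.37, 4.58 and 4.43 on the resistant arrays, against 4.51, 4.49 and 4.45 on the parental arrays, and was detected on none of them. The groups overlapped for both probes, at levels where the arrays hold little signal. With no detection filter the PPP1R15B difference was -0.07 (95% interval -0.36 to 0.22, adjusted p = 0.788 over 20044 genes). Without parental replicate 3 the gene passed the filter, and its difference was -0.15 (95% interval -0.46 to 0.15, adjusted p = 0.377 over 10826 genes).

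**Figure D2:**
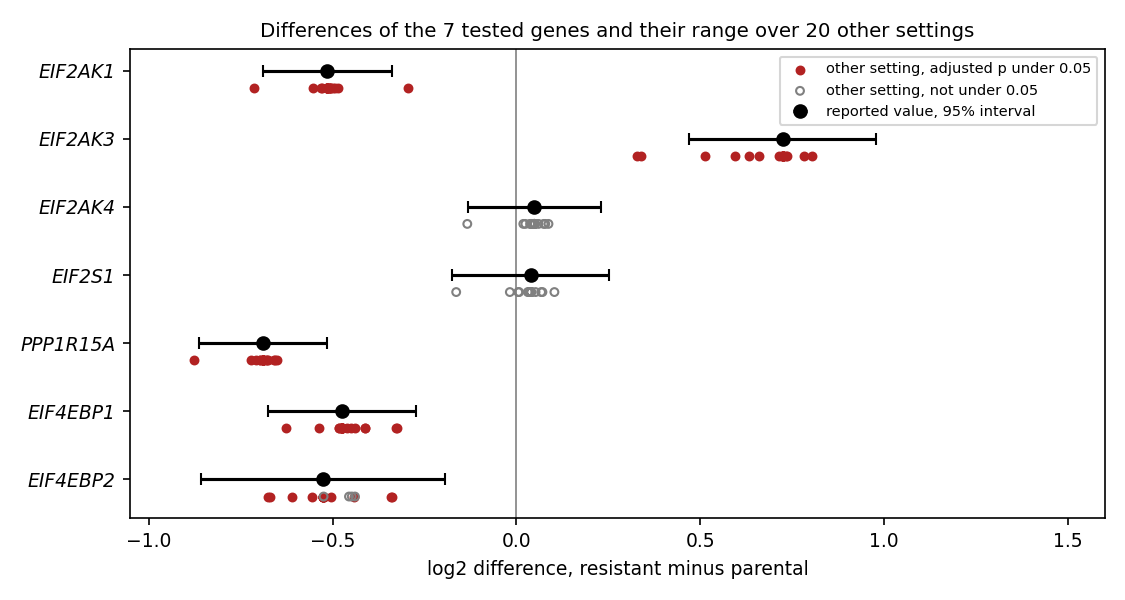
Log2 difference of each tested gene, resistant minus parental (horizontal axis), with its 95% interval in black and, below it, the values under 20 other processing settings, filled where the adjusted p is under 0.05. PPP1R15A, EIF2AK1 and EIF4EBP1 stay below 0 and EIF2AK3 stays above 0 with every point filled, EIF4EBP2 has 4 open points, and EIF2AK4 and EIF2S1 straddle 0.

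Both members of the brake on the cap-binding factor had lower mRNA in the resistant cells. EIF4EBP1 (probe ILMN_1767324) read 7.45, 7.70 and 7.59 on the resistant arrays, against 8.08, 8.05 and 8.05 on the parental arrays. The parental arrays were nearly alike and lay above all resistant arrays. The difference was -0.48 (SE 0.09, 95% interval -0.68 to -0.27, adjusted p = 0.00311), which is 1.39-fold lower. The raw intensities were 277 ± 0.974 on the resistant arrays and 392 ± 14.4 on the parental arrays (SD, n = 3 each). Without background correction the EIF4EBP1 difference was -0.33 (adjusted p = 3.94e-04). EIF4EBP1 lies on chromosome 8, where its 20 neighbours had a median difference of -0.04, with 5 higher and 4 lower, and it ranked 4 of 21 from the lowest.

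EIF4EBP2, a paralog with the same action on eIF4E, read 7.58, 7.14 and 7.13 on the resistant arrays (probe ILMN_1728083), against 7.81, 7.98 and 7.64 on the parental arrays. The groups did not overlap, but resistant replicate 1 came within a small distance of parental replicate 3. The difference was -0.53 (SE 0.14, 95% interval -0.86 to -0.19, adjusted p = 0.0185), which is 1.44-fold lower. The call depended on single arrays: it was lost without resistant replicate 2 (adjusted p = 0.0639), resistant replicate 3 (0.0601), parental replicate 1 (0.0514) or parental replicate 2 (0.0632). Without background correction the difference was -0.34 (adjusted p = 0.00243).

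The differences of EIF4EBP2 and EIF4EBP1 differed from each other by -0.05, with an exact two-sided permutation p of 0.80 (0.80 adjusted over the 2 pairs). As the smallest p that 3 arrays against 3 can give is 0.10, this test could not have shown a difference. Of the 20 neighbours of EIF4EBP2 on chromosome 10, 10 were lower and 3 higher, with a median of -0.35, and EIF4EBP2 ranked 7 of 21 from the lowest. With 10 neighbours the median was -0.15, with 2 lower and 2 higher. The part of these neighbours in the EIF4EBP2 difference was not tested. EIF4EBP3, the third paralog and no member, had a difference of 0.09 (adjusted p = 0.607).

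**Figure D3:**
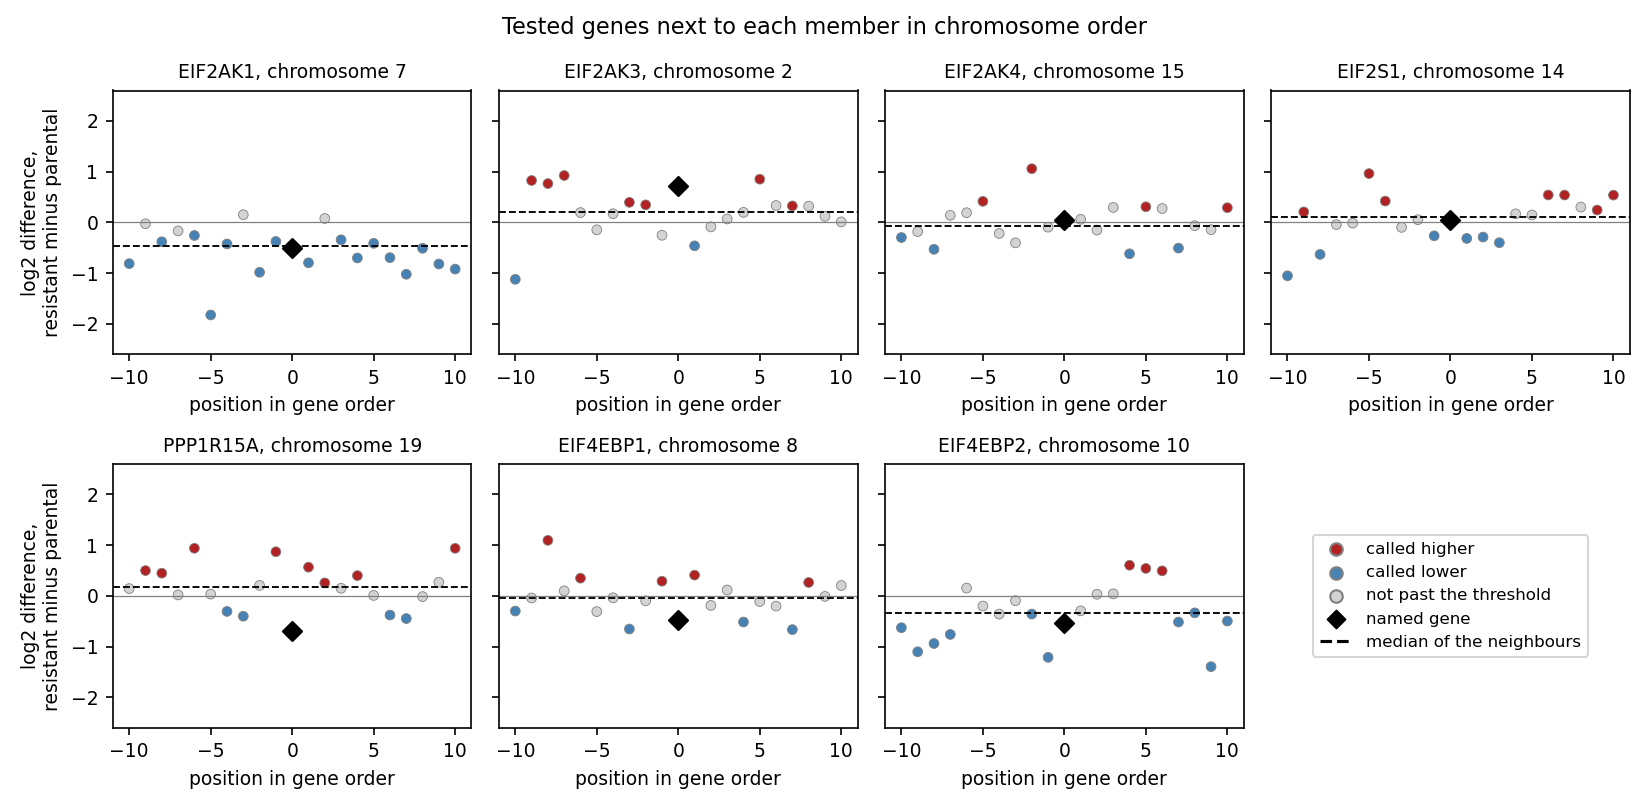
Log2 difference, resistant minus parental (vertical axis), of each tested member (black diamond) and of the 10 tested genes on each side of it in chromosome order (horizontal axis, by rank), with the median of the neighbours as a dashed line. EIF2AK1 sits at the level of its neighbours, of which 16 of 20 were lower, while PPP1R15A lies below all of its 20 neighbours. Among all tested genes 22.4% were called higher and 23% lower.

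The genes whose profile over the 6 arrays was nearest to each called member were found by the root mean square difference of log2 values centred on each gene's mean. For PPP1R15A they were ATP1B3, NRSN2 and HSPA14, at 0.021 to 0.030 log2 units. For EIF2AK1 they were PSMD6, DUS4L and GCDH, at 0.026 to 0.032. For EIF4EBP1 they were FDX2, DNAJC19 and PARD6G, at 0.026 to 0.027, and for EIF4EBP2 CHORDC1, GAGE4 and MMACHC, at 0.033 to 0.053. The profiles nearest to EIF2AK3, those of MFNG, SESTD1 and DENND2B, were at 0.039 to 0.074. No member was among the 3 nearest profiles of another. So few places among 10672 tested genes cannot show whether the members vary together.

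The other genes of the pathway were read in 5 lists. For comparison with each count, 45.4% of all tested genes were called, 22.4% higher and 23% lower. Of the 9 tested genes of the eIF2 complex, its exchange factor and their partners, 6 were lower and 1 was higher, with a median difference of -0.36, against -0.0040 over all genes. The exchange factor subunits EIF2B3, EIF2B2 and EIF2B5 fell by 0.50, 0.43 and 0.43 on the log2 scale (adjusted p = 0.00118, 0.00254 and 0.00429). EIF5, which makes eIF2 hydrolyse its GTP at the start codon, fell by 0.49 (adjusted p = 0.00196), but had a difference of -0.16 (adjusted p = 0.179) when its probes were averaged. The subunit EIF2B4, picked out after its value was known, was higher by 0.29 (adjusted p = 0.0133), and this call was lost under median scaling (adjusted p = 0.333). The gamma subunit of eIF2, EIF2S3, fell by 0.35, and the beta subunit EIF2S2 had a difference of -0.11 (adjusted p = 0.421).

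Genes that act on eIF2 phosphorylation went both ways, with 4 of 12 higher, 2 lower and a median difference of 0.011. Over all tested genes 22.4% were called higher and 23% lower. Beside EIF2AK2 the largest changes were in the relay from mitochondria to EIF2AK1. DELE1, the messenger protein that binds and activates EIF2AK1, read 6.94, 6.35 and 6.66 on the resistant arrays, against 7.35, 7.25 and 7.30 on the parental arrays, a difference of -0.65 (SE 0.14, adjusted p = 0.0064). OMA1, the protease that releases DELE1, read 7.81, 7.84 and 7.90 on the resistant arrays, against 7.26, 7.08 and 7.27 on the parental arrays, a difference of 0.64 (SE 0.08, adjusted p = 5.91e-04). The groups did not overlap for either gene. MAP3K20, a kinase that senses stalled ribosomes, rose by 0.45 (adjusted p = 0.00221).

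GCN1 and IMPACT, which act on EIF2AK4, did not pass the threshold. GCN1, its activator on ribosomes, had a difference of -0.14 (adjusted p = 0.186), but was called lower under median scaling (difference -0.32, adjusted p = 0.0172). IMPACT, its inhibitor, had a difference of 0.06 (adjusted p = 0.70). Its probe was dim, with 5.27, 5.08 and 5.11 on the resistant arrays, against 5.06, 5.29 and 4.93 on the parental arrays. With detection p under 0.01 required, IMPACT was not tested. HSPA5, the chaperone that holds EIF2AK3 inactive, had a difference of 0.05 (adjusted p = 0.661). The catalytic subunits of protein phosphatase 1, named after their values were seen, were mixed. PPP1CB was higher by 0.32 (adjusted p = 0.00882), a call lost under median scaling and when its probes were averaged, PPP1CC fell by 0.40 (adjusted p = 0.00845), and PPP1CA had a difference of -0.05 (adjusted p = 0.714).

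Of 7 messages with upstream reading frames 4 were lower and none was higher, with a median of -0.38. Such messages are read better or keep being read while eIF2 is phosphorylated. Over all tested genes 45.4% were called, 22.4% higher and 23% lower. ATF4 read 12.25, 12.39 and 12.39 on the resistant arrays, against 13.05, 13.00 and 12.94 on the parental arrays. It fell by 0.65 (SE 0.08, 1.57-fold, adjusted p = 4.46e-04), and all resistant arrays lay below all parental arrays. It was the lowest of 21 among its neighbours on chromosome 22, of which 15 of 20 were higher (median 0.50). DDIT3, or CHOP, a stress factor that switches on PPP1R15A, fell by 0.95 (SE 0.08, adjusted p = 4.95e-05), EPRS1, a tRNA synthetase, by 0.43 and IFRD1 by 0.38. ATF5 had a difference of 0.29 and did not pass the threshold (adjusted p = 0.0735), but was called higher in 7 of 20 other settings.

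Among the 15 tested genes of the cap-binding complex and its partners 5 were higher and 2 lower, with a median of 0.08. Over all tested genes 45.4% were called. Under median scaling 3 genes of this list were higher and 4 lower, where 49.1% of all tested genes were called. EIF4E3, a relative of eIF4E, fell by 0.84 (SE 0.10, adjusted p = 3.07e-04), and the scaffold EIF4G1 fell by 0.41 (adjusted p = 0.00387). EIF4G1 and the exchange factor subunit EIF2B5 both lie on chromosome 3, with 10 and 8 of 20 neighbours lower and neighbour medians of -0.33 and -0.27. EIF4ENIF1, which carries eIF4E into the nucleus and represses bound messages, rose by 0.72 (SE 0.07, adjusted p = 1.60e-04). It lies on chromosome 22, where 18 of its 20 neighbours were higher with a median of 0.57. MKNK1, a kinase of eIF4E, rose by 0.43 (adjusted p = 0.0105), a call lost under median scaling (adjusted p = 0.0773). EIF4E itself, the target of the EIF4EBP proteins, had a difference of -0.16 (95% interval -0.51 to 0.18, adjusted p = 0.402). Its probe was dim, with 5.73, 5.64 and 5.23 on the resistant arrays, against 5.72, 5.88 and 5.50 on the parental arrays.

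Of 6 genes of the mTORC1 kinase and its translation targets only EEF2K passed the threshold, where 45.4% of all tested genes did. EEF2K, which brakes elongation by phosphorylating the factor eEF2, was higher by 0.48 (SE 0.11, adjusted p = 0.00697). MTOR, which phosphorylates the EIF4EBP proteins, had a difference of -0.011 (95% interval -0.23 to 0.21, adjusted p = 0.932). RPS6KB2, with a difference of -0.25 (adjusted p = 0.0613), was called lower in 7 of 20 other settings.

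**Figure D4:**
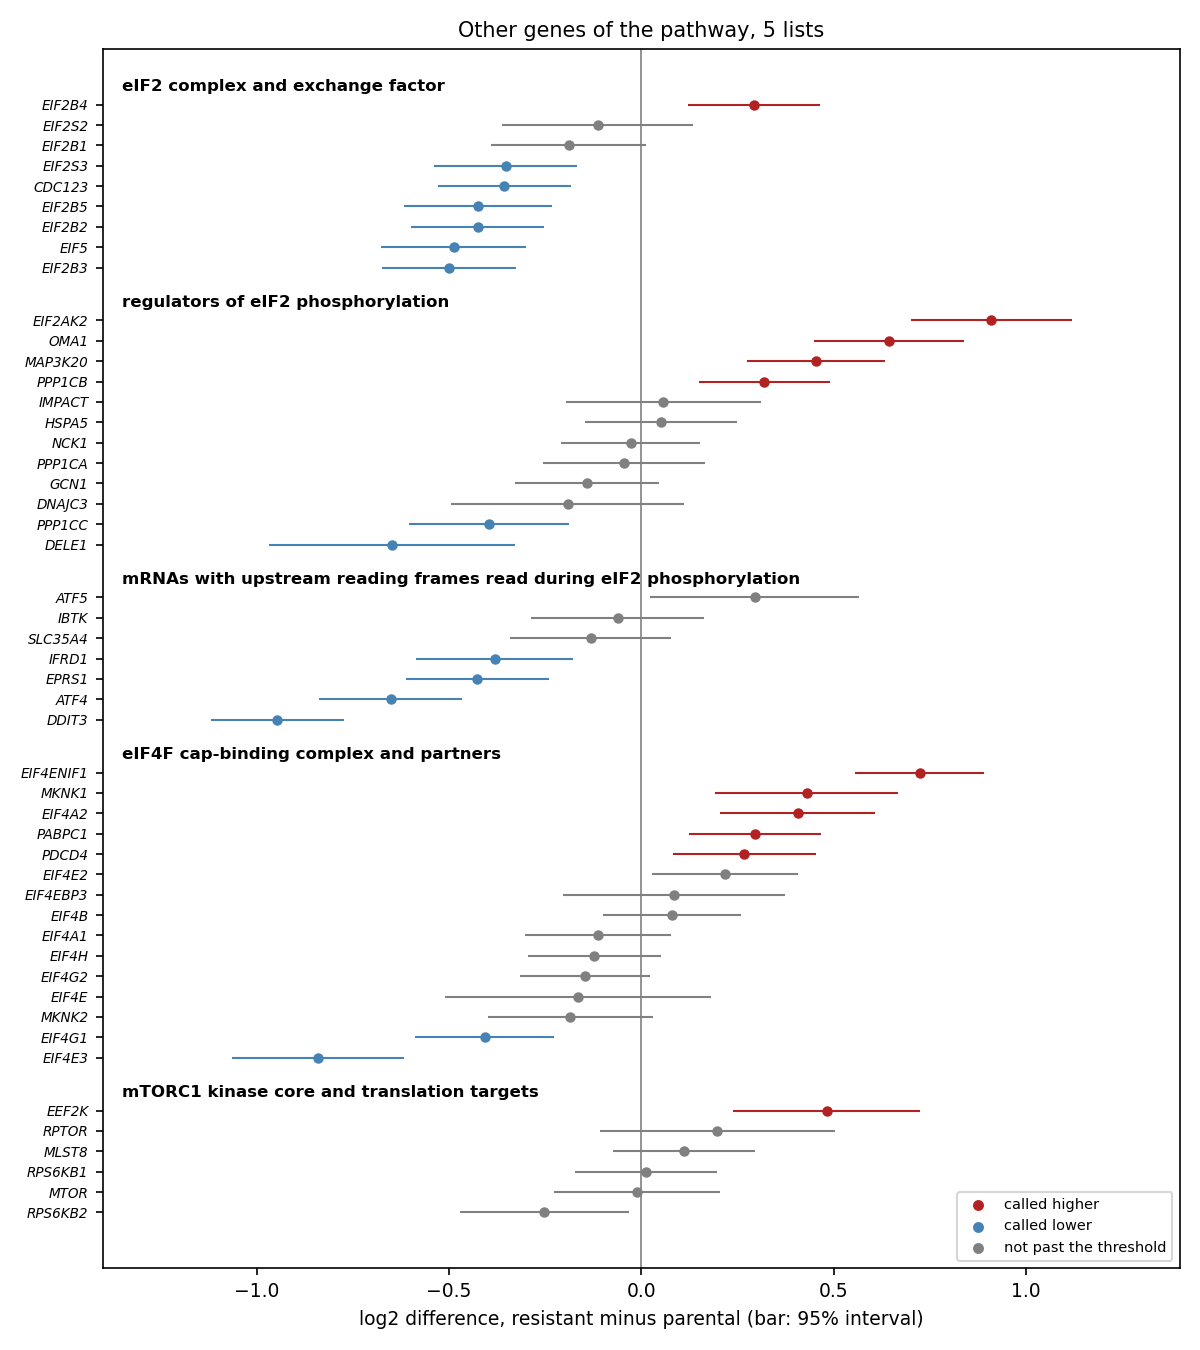
Log2 difference, resistant minus parental (horizontal axis), with 95% interval for each tested gene of the 5 lists, in red where called higher, blue where called lower and grey otherwise. In the list of eIF2 and its exchange factor 6 of 9 genes are blue, and in the list of messages with upstream reading frames 4 of 7 are. Over all tested genes 45.4% were called, 22.4% higher and 23% lower.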

How the data were processed

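Per the labels, total RNA was made into biotin-labelled cRNA for Illumina arrays. The deposited table holds intensities of 47225 probes on 6 arrays with their detection p-values, and names no normalisation. In 3269 rows, none of them a member's, these columns were exchanged and the intensity was on the natural log scale, per the deposited values (rank correlation 1 with the deposited log2 values); they were restored. How the authors made the deposited log2 values is not stated.

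Intensities were corrected with normexp (offset 16) and quantile normalised (limma 3.58.1, R 4.3.3). Probes with detection p under 0.05 on all 3 arrays of a group were kept (17843), named through the platform annotation updated to GRCh38.p14, and the brightest probe stood for its gene. Groups were compared with lmFit and eBayes without covariate. The functions were tested on simulated data.

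The members and lists were chosen with earlier results of these data known. Named are the members, up to 4 called genes of each list with the largest change, ATF4 and EIF2AK2, the 3 nearest profiles of each called member, and other list genes named for their role after their values were seen; neighbours are 10 tested genes on each side. The number of arrays limits precision. Same-numbered replicates did not deviate together (correlations -0.07, -0.0011 and 0.05), so no pairing was used. No 2 arrays were identical. Alternatives covered background, normalisation, filter, probe choice, variance model, replicate block and each array left out. Protein sequences were not used here.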

Additional observations from a re-analysis of the deposited data

How the results depend on the processing

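Over 20 other settings the count of members called higher was 1 in each, and that of members called lower was 4, or 3 where EIF4EBP2 was lost without 1 array. EIF2AK1, EIF2AK3, PPP1R15A and EIF4EBP1 kept their direction and call in all 20 settings, with differences from -0.71 to -0.30, 0.33 to 0.80, -0.88 to -0.65 and -0.63 to -0.32. EIF4EBP2 ranged from -0.68 to -0.34, and leaving out 1 array gave -0.68 to -0.44. Differences that turned sign were not past the threshold in either setting: EIF2AK4 at -0.13 and EIF2S1 at -0.16 under median scaling, EIF2S1 at -0.018 without resistant replicate 1 (range with 1 array left out -0.018 to 0.10), and the second EIF2AK1 probe at 0.014 without parental replicate 1, in a range of -0.24 to 0.014 with 1 array left out. The cause was not tested. With the replicate number as a block, members called higher and lower were 1 and 4, and 4578 genes were called in all, against 4843. The block changed no member's call, and of the 5 lists only ATF5 was added (adjusted p = 0.0474). Of the 6 samples 1 correlated best with its own number. Without the detection filter 4180 of 20044 genes (20.9%) were called. Between 5 and 20 neighbours on each side, the median around EIF2AK1 was -0.42 to -0.50, around EIF2AK3 0.12 to 0.23, around EIF4EBP1 -0.10 to -0.04 and around EIF4EBP2 -0.35 to -0.15. Around EIF2S1 it turned from 0.10 to -0.022 with 5 on each side. These other windows were chosen after seeing the data. Signal over background limits PPP1R15B, which was not tested on all 6 arrays, and the size of the EIF2AK3 difference, which was 0.33 without background correction. The EIF4EBP1 and EIF4EBP2 differences were also smaller in size without that correction, at -0.33 and -0.34.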
